A study of Homo sapiens with 29 samples.

Results

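The genes that carry NF-kB signalling and the genes that shut it off were followed through RPE1 cells in which chromosomes had missegregated, cells that carried micronuclei (MN), and cells whose micronuclei had ruptured. The set was fixed by name, with earlier results of these data known, and holds 10 genes. They are the subunit genes NFKB1, NFKB2, RELA and RELB, the inhibitor genes NFKBIA and NFKBIE, and the feedback genes TNFAIP3, TNIP1, CYLD and BIRC3. Of these, 9 were measured in all 3 tables of counts, among 10737 genes present in any table and 9431 present in all of them. BIRC3, which encodes a ubiquitin ligase of the TNF receptor complex, is in none of the tables, where every listed gene reaches 700 counts in 2 or more libraries, and it was not analysed here. TNFAIP3 was the member with the largest fold change in each of the 3 comparisons. It was higher in the treated, micronucleated or ruptured library of all 11 matched pairs. The study had already named TNFAIP3 as raised in MN+ cells and in Mps1i-treated cells. On GRCh38 with the GENCODE v44 annotation, TNFAIP3 (ENSG00000118503) lies at chr6:137867214-137883314 on the plus strand with 9 exons in its canonical transcript, and CYLD (ENSG00000083799) at chr16:50742050-50801935 on the plus strand with 19. NFKBIA (ENSG00000100906) is a compact gene at chr14:35401079-35404749 on the minus strand with 6 exons. Each value is a sum over a whole gene, so transcript forms are not told apart.

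In a resting cell the NF-kB dimers are held in the cytoplasm by IkB proteins. A signal from a receptor builds ubiquitin chains that recruit and activate the IkB kinase (IKK), the IkB protein is degraded, and the freed dimer enters the nucleus. Among the genes it switches on are its own inhibitors and the enzymes that edit the ubiquitin chains, so that the pathway limits itself. The transcript levels of these feedback genes are therefore often read as a record of recent NF-kB activity, although other regulators can act on them too.

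RPE1 is a telomerase-immortalised line derived from human retinal pigment epithelium, and the cells used here carried fluorescent reporters of chromatin and of the nuclear interior (emiRFP703 and Dendra2). Mps1i is BAY1217389, an inhibitor of the spindle checkpoint kinase Mps1, given at 100 nM for 24 h so that cells divide with lagging chromosomes and form micronuclei. The DMSO cells received the solvent. MN+ and MN- cells, and rupture+ and rupture- cells, had all been given Mps1i, so these comparisons lie within treated populations. The labels add a pre-treatment with RO-3306, a Cdk1 inhibitor, at 10 µM for 20 h to the rupture samples only, whereas the study's methods name a Cdk4/6 inhibitor for that synchronisation, and which was used could not be settled. By the same methods, all cells for sorting received RO-3306 before imaging. For the MN and rupture samples an image classifier assigned each nucleus to a class. A UV pulse of 200 or 800 ms then converted the reporter so that the classes could be sorted. In the DMSO and Mps1i cells the pulse length was assigned to nuclei at random, so these libraries are not image-defined classes. The sorted MN and rupture classes are enriched and not pure populations of 1 cell line.

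There were 4 DMSO and 4 Mps1i libraries from 2 experiments, each with both pulse lengths. There were also 4 MN- and 4 MN+ libraries from 2 further experiments, in which the pulse lengths were exchanged between 2 wells, and 3 rupture- and 3 rupture+ libraries from 3 experiments. All rupture- cells received the 800 ms pulse and all rupture+ cells the 200 ms pulse, so rupture and pulse length cannot be told apart in that table. A matched pair is the Mps1i and DMSO library of the same experiment and pulse, the MN+ and MN- library of the same well, or the rupture+ and rupture- library of the same experiment. Total counts ranged from 47919780 to 145242185 per library. The MN- library with the 200 ms pulse in experiment 2 had 62831160 counts, while the other 3 libraries of that experiment had 116934561 to 136865912. Markers of the line (KRT8, KRT18, KRT7, VIM and CDH2) were all present in every table, 2 of 7 markers of pigment epithelium identity were (MITF and OTX2, but not RPE65 or BEST1), and 1 of 8 markers of other cell types was (CD68, which many cells express in lysosomes). The study describes the DMSO and Mps1i libraries of both pulse lengths as technical replicates within an experiment, so n = 4 in these groups counts libraries from 2 experiments. By the study's methods, the MN libraries of 1 condition in an experiment came from different wells. How independent those wells were is not stated. Except where the pulses were summed, the p-values treat such libraries as separate samples. In the Mps1i table these are technical replicates, and in the MN table they are wells of 1 experiment.

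NF-kB dimers bind a short DNA element, the kB site, and its sequence in the members' promoters is shown because it is the element through which these genes can be induced by the factor they limit. The kB consensus (a run of G, a purine, any base, A or T, a pair of pyrimidines and a pair of C) was searched on both strands of RefSeq promoter windows on GRCh38.p14, which run from 250 bases before to 50 bases after each annotated start. A match was found for 6 of the 7 measured members that had a window (85.7%), and for BIRC3, whose promoter was searched although its level was not measured. The share among all genes was 1937 of 27305 with a window (7.09%), and among windows 2075 of 35116 (5.91%). The members were picked by name as genes of this pathway, and several have 2 or 3 windows in which a match could occur. The shares are therefore a description and not a test. RELA had a window and no match, and NFKBIE and RELB had no window. A match is a stretch of letters and not a measured binding site. In the stretches shown here, 1 for each measured member with a match upstream of a start except for NFKB2 with 2, capitals mark the matches and the strand is that of the gene. The TNFAIP3 stretch is at chr6:137867188-137867217 on the plus strand and holds 2 matches, spanning 67 to 46 bases before the start. The TNIP1 stretch is at chr5:151081057-151081086 on the minus strand, with its match 42 to 33 bases before a start. The NFKBIA stretch is at chr14:35404811-35404840 on the minus strand, with its match 81 to 72 bases before the start. The CYLD stretch is at chr16:50741887-50741916 on the plus strand, with its match 189 to 180 bases before a start. The NFKB1 stretch is at chr4:102501300-102501329 on the plus strand, with its match 49 to 40 bases before a start. The NFKB2 stretches are at chr10:102394462-102394491, with 3 overlapping matches 107 to 97 bases before one start, and at chr10:102395674-102395703, with a match 21 to 12 bases before another, both on the plus strand. Not shown are further NFKB2 matches, 78 to 69 bases before the first of these starts and 176 to 167 before the second. A CYLD match that begins at another annotated start is not shown either.
TNFAIP3: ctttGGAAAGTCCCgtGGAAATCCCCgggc
TNIP1: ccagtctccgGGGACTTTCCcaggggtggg
NFKBIA: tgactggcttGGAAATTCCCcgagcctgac
CYLD: ttgacagagcGGAAAGTCCCttcggccggc
NFKB1: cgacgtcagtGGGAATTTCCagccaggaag
NFKB2, upstream start: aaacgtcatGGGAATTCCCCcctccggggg
NFKB2, downstream start: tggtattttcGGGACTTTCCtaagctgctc
By the annotation, the NFKBIA and CYLD stretches lie outside exons and the upstream NFKB2 stretch lies wholly in an exon of NFKB2. The other stretches are exonic in part, with 4 bases of the TNFAIP3, 28 of the TNIP1 and 11 of the downstream NFKB2 stretch in exons of the gene itself, and 20 bases of the NFKB1 stretch in an exon of a neighbouring gene. Among the members shown here, the fold change with Mps1i ranged from 1.04 for NFKB1 to 1.90 for TNFAIP3.

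Levels are given as CPM, the count of a gene relative to the total of its library on the usual fixed scale, with totals adjusted between the libraries of a table by the TMM method. Since the samples were bulk RNA, fewer cells with a transcript and less transcript in each cell cannot be told apart. Divided by transcript length, the members spanned a wide range in DMSO. The highest levels per kilobase were those of RELA, the main transactivating subunit (34.6 ± 0.433 CPM per kb, SD, n = 4), and NFKBIA, which encodes IkBalpha (30.9 ± 3.29 CPM per kb), whose libraries overlapped. TNIP1, which encodes the A20-binding protein ABIN1, followed with 18.6 ± 1.04 CPM per kb, ahead of NFKB1 (13.4 ± 0.849), NFKB2 (9.45 ± 1.13) and CYLD (8.03 ± 0.225). The lowest were NFKBIE (5.77 ± 0.40 CPM per kb), RELB (3.35 ± 0.589) and TNFAIP3 (2.03 ± 0.265). RELA and NFKBIA were the highest members and RELB and TNFAIP3 the lowest in all 6 conditions. In the rupture+ libraries TNFAIP3 was at 7.96 ± 2.64 CPM per kb (SD, n = 3), where its libraries overlapped those of both neighbours, NFKBIE with 10.5 ± 1.25 and RELB with 5.91 ± 1.45.

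Set side by side across the 6 conditions, the mean level of TNFAIP3 was lowest in DMSO (9.45 ± 1.24 CPM, SD, n = 4), followed by MN- (12.0 ± 4.05), Mps1i (17.8 ± 3.38), rupture- (20.8 ± 7.60, n = 3), MN+ (22.4 ± 5.26) and rupture+ (37.1 ± 12.3). Each neighbouring pair in this order overlapped, so the order of neighbours is not resolved. DMSO was also the lowest condition for TNIP1, NFKBIA, NFKBIE, NFKB2, RELB and CYLD, and its CYLD and NFKBIE libraries did not overlap those of the next condition. RELA had its lowest levels in the rupture table (63.4 ± 7.13 CPM in rupture+ and 63.9 ± 3.03 in rupture-), clear of the 84.8 ± 8.88 CPM of MN+, the next condition. NFKB1 was the other way around, with 75.9 ± 9.78 CPM in rupture- and 85.7 ± 7.16 in rupture+ against 56.5 ± 1.86 in Mps1i. The tables were scaled separately and come from different days and treatments, so levels across tables stand here as a description with no test.

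**Figure D1:**
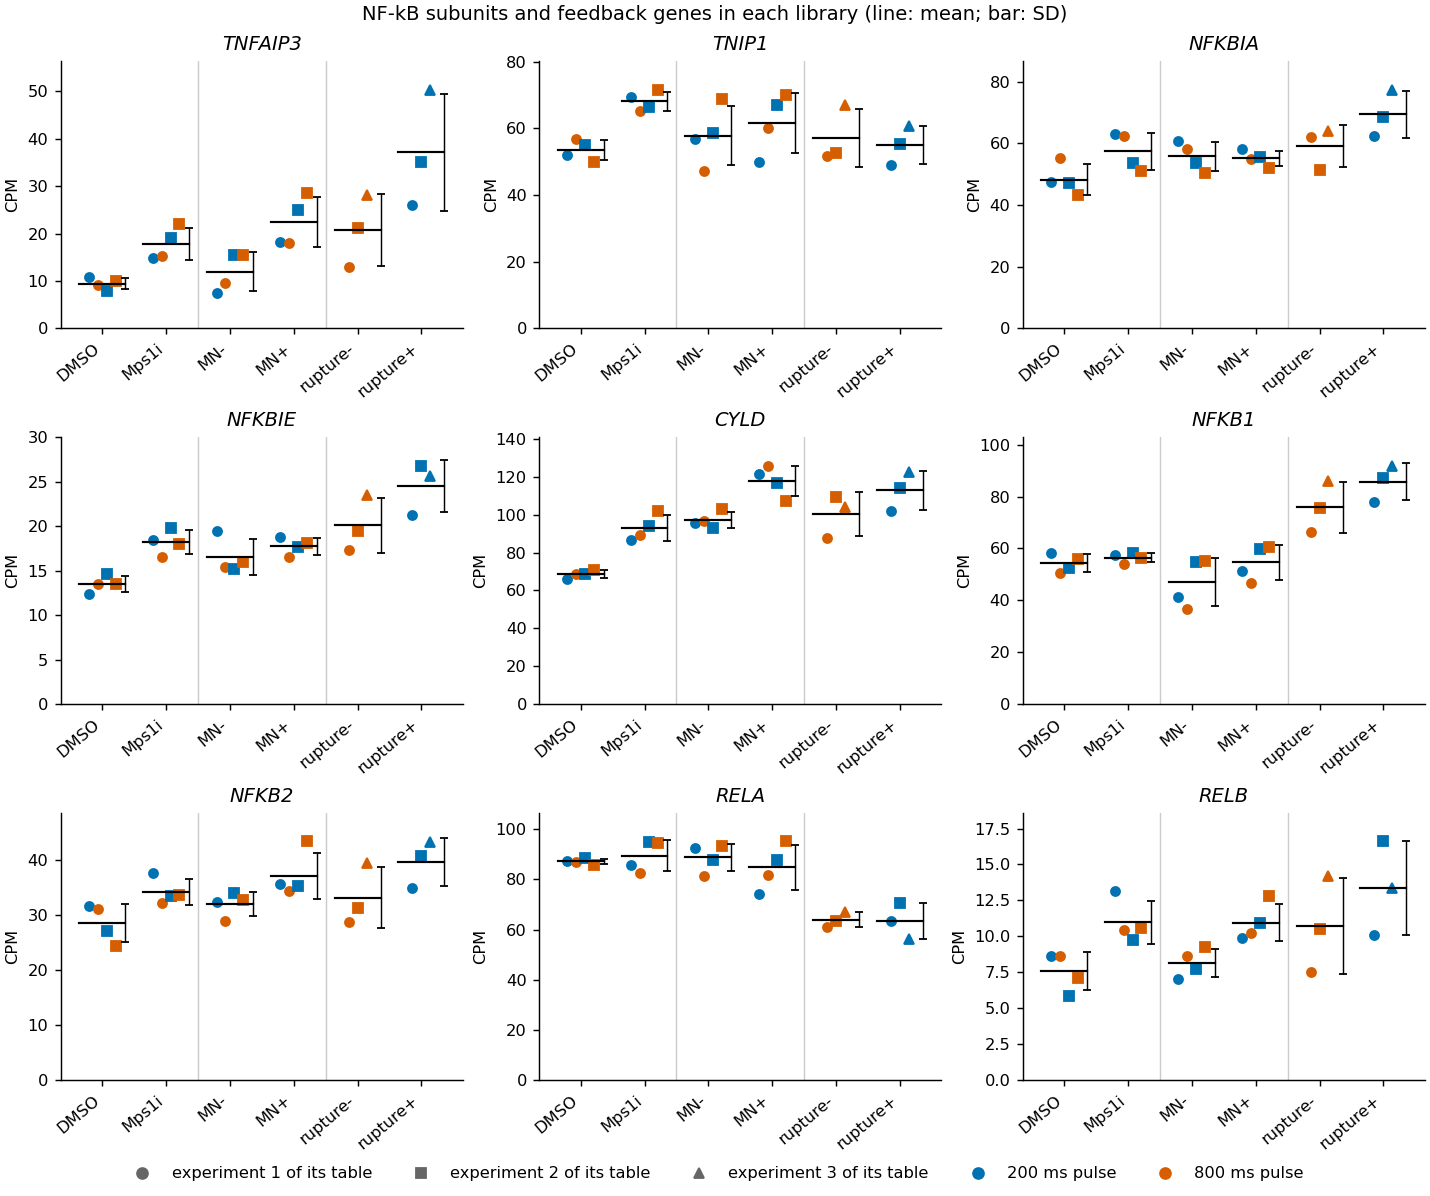
Each panel plots the level of 1 gene in CPM (vertical axis, linear from 0) in the 22 libraries, grouped by condition along the horizontal axis, with horizontal lines for the group means, bars for the SD, symbol shapes for the experiment within a table, and colours for the UV pulse. TNFAIP3 rises from 9.45 CPM in DMSO to 37.1 CPM in rupture+ on average, while RELA lies between 74.3 and 95.2 CPM in the DMSO, Mps1i, MN- and MN+ libraries and between 56.2 and 70.4 CPM in both rupture groups.

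The comparison of Mps1i with DMSO sets treated cells, not sorted by micronuclei, against solvent, and takes in every effect of the inhibitor. Only nuclei found by the segmenter were converted, and by the study it often missed highly lobulated ones. All 9 measured members had a higher fitted level with Mps1i, and 5 of them passed the threshold of 0.05 on the adjusted p (the quasi-likelihood test of edgeR with condition alone, Benjamini-Hochberg over 10577 genes): TNFAIP3, CYLD, TNIP1, NFKBIE and RELB. Of all genes, 6.32% were called higher by the same rule. The 3 measured genes that edit ubiquitin or guide that editing all rose, 1 of the 2 inhibitor genes did, and of the subunits RELB rose while NFKB1 and RELA, which encode the classical dimer, had fold changes of 1.04 and 1.03 and were not called. The median log2 fold change of the 9 members was 0.35, against -0.0038 over all genes tested.

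TNFAIP3 encodes A20, an enzyme that edits the ubiquitin chains upstream of IKK and so ends the signal. With the 200 ms pulse its level was 10.8 CPM in DMSO and 14.9 in Mps1i in experiment 1, and 7.87 and 19.1 in experiment 2. With the 800 ms pulse it was 9.202 in DMSO and 15.3 in Mps1i in experiment 1, and 9.95 and 22.0 in experiment 2. Every Mps1i library lay above every DMSO library, and the 2 Mps1i libraries of experiment 2 were the highest. The fold change was 1.90 (log2 0.92, standard error 0.136, adjusted p = 0.00218), and it was the 32nd largest increase of the 10577 genes.

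The 2 experiments gave different sizes for the increase of TNFAIP3. Within experiment 1 the log2 fold change was 0.60 (standard error 0.125) and within experiment 2 it was 1.21 (standard error 0.116). The difference between these effects was 0.61 (standard error 0.181), with an adjusted p of 0.206 in edgeR and 0.0373 in DESeq2, so the call depends on the tool. The 4 matched pairs ranged from 0.46 to 1.28, all with the higher level in Mps1i.

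CYLD encodes a deubiquitinase that removes linear and K63-linked chains from the receptor complexes. Its DMSO levels were 66.2, 68.6, 68.8 and 70.9 CPM and its Mps1i levels 86.7, 89.4, 93.8 and 102 CPM. The spread in DMSO was small, with a coefficient of variation of 2.80%, and the groups stood well apart. CYLD rose 1.36-fold (log2 0.44, standard error 0.0532, adjusted p = 0.000690), and its matched pairs ranged only from 0.38 to 0.53.

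TNIP1 encodes ABIN1, which links A20 to ubiquitin chains. Its levels were 52.0, 56.7, 55.1 and 50.1 CPM in DMSO and 69.3, 65.4, 66.5 and 71.6 CPM in Mps1i, again without overlap. It rose 1.28-fold (log2 0.35, standard error 0.0519, adjusted p = 0.00218).

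NFKBIE encodes IkBepsilon, an inhibitor whose feedback is known to be slower than that of IkBalpha. It was at 12.4, 13.5, 14.7 and 13.5 CPM in DMSO and at 18.5, 16.5, 19.8 and 18.01 CPM in Mps1i, with no overlap, and rose 1.35-fold (log2 0.43, standard error 0.0762, adjusted p = 0.00534). Without experiment 2 the NFKBIE call was lost (adjusted p = 0.0524) at a log2 fold change of 0.44. NFKBIA, the gene of the fast inhibitor IkBalpha, was at 47.4, 55.4, 47.0 and 43.2 CPM in DMSO and at 62.9, 62.2, 53.6 and 51.0 CPM in Mps1i. Its groups overlapped, its Mps1i levels were lower in experiment 2 than in experiment 1, and all 4 matched pairs were higher in Mps1i. NFKBIA was not called on the condition alone (fold 1.19, log2 0.25, standard error 0.0875, adjusted p = 0.0848) and was called with the experiment as a block (log2 0.25, standard error 0.0533, adjusted p = 0.00718).

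Of the subunit genes, those of the non-canonical dimer, RELB and NFKB2, were called with at least 1 of the main designs. RELB was at 8.63, 8.62, 5.87 and 7.13 CPM in DMSO and at 13.2, 10.4, 9.77 and 10.6 CPM in Mps1i. It rose 1.46-fold (log2 0.54, standard error 0.138, adjusted p = 0.0287). RELB is the member with the fewest counts, at 562 to 1429 per library in these groups, and its call was lost without the Mps1i 200 ms library of experiment 1 (adjusted p = 0.0676), the Mps1i 800 ms library of experiment 2 (0.0520), the DMSO 200 ms library of experiment 2 (0.0622), the DMSO 800 ms library of experiment 2 (0.0751) or the whole of experiment 2 (0.112). With the experiment as a block RELB was called without any 1 of the 8 libraries. NFKB2, which encodes the p100 precursor of p52, was at 31.5, 31.0, 27.1 and 24.3 CPM in DMSO and at 37.6, 32.1, 33.4 and 33.5 CPM in Mps1i. Its groups did not overlap, and it was called with the block (log2 0.27, standard error 0.0661, adjusted p = 0.0134), not on the condition alone (log2 0.26, standard error 0.0859, adjusted p = 0.0683). With the pulses of each experiment summed, the blocked NFKB2 call was lost (log2 0.27, adjusted p = 0.0562), while the other 6 members called with the block were called.

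NFKB1, which encodes the p105 precursor of p50, ranged from 50.7 to 58.3 CPM in DMSO and from 54.0 to 58.3 in Mps1i (log2 0.06, standard error 0.0532, adjusted p = 0.523). RELA ranged from 85.9 to 88.5 CPM in DMSO and from 82.6 to 94.9 in Mps1i (log2 0.04, standard error 0.0503, adjusted p = 0.657). Neither gene was called in any of the 19 fits of this comparison. With the experiment as a block, 7 of the 9 members were called, all higher, where 12.7% of all genes were. The groups stood apart for 6 members, against 10.1% of all genes, and 7 members were higher in every matched pair, against 20.9% of all genes.

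**Figure D2:**
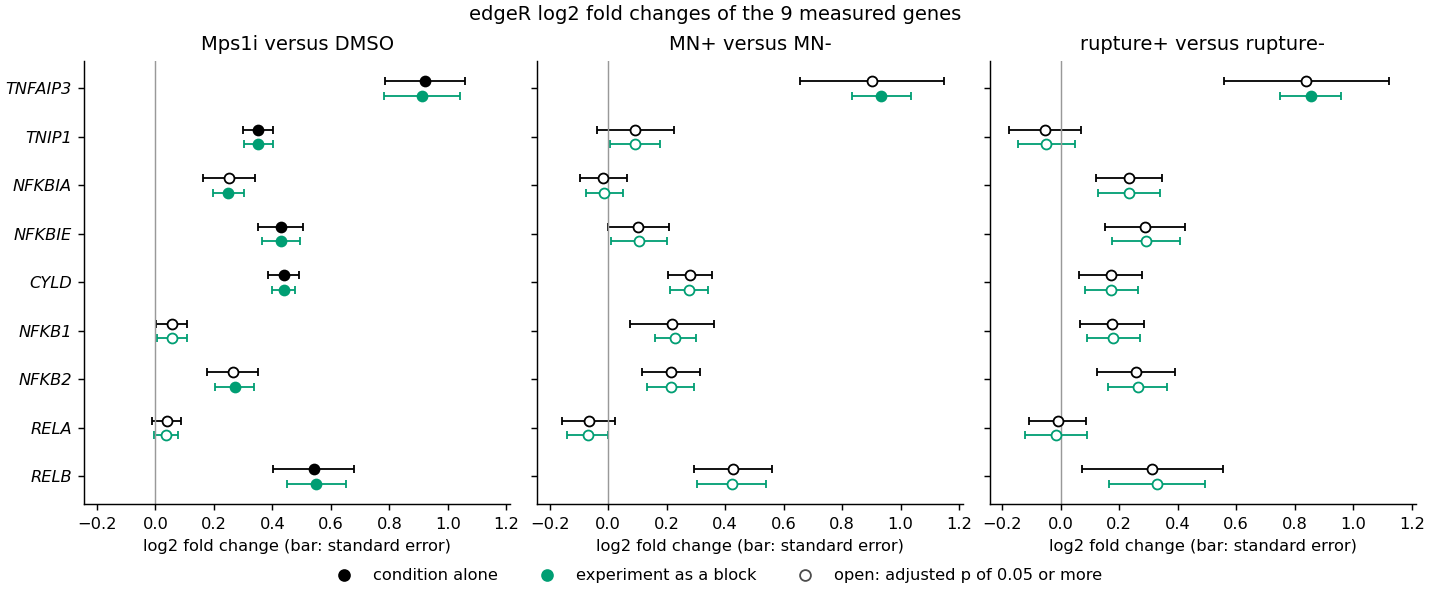
The 3 panels plot the edgeR log2 fold change (horizontal axis) of the 9 measured genes with its standard error as a bar, in black for the fit on the condition alone and in green with the experiment as a block, and open symbols did not reach an adjusted p of 0.05. With Mps1i there are 5 filled black and 7 filled green symbols, while with MN+ and rupture+ the TNFAIP3 value with the block is the filled one.

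MN+ and MN- cells come from the same treated wells, and their comparison sets cells with a micronucleus against cells without. The study counted chosen chromosomes by DNA FISH in Mps1i-treated RPE1 cells and found aneuploidy more frequent in MN+ than in MN- cells. Carrying a micronucleus and aneuploidy therefore cannot be told apart here. On the condition alone no member was called, and neither was any of the 10594 genes (0%). edgeR gave 789 genes with an unadjusted p below 0.05, among them 3 members (TNFAIP3, CYLD and RELB), DESeq2 called 5 genes and limma-voom 0, none of them a member. TNFAIP3 was the exception once the experiment was fitted as a block: it was then the only gene called of all those tested (0.00944%). The median log2 fold change of the members was 0.22, or 0.16 without RELB, against -0.00048 over all genes.

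In experiment 1 the TNFAIP3 level was 9.51 CPM in the MN- and 18.1 in the MN+ library of one well, and 7.55 and 17.96 in the other well. In experiment 2 it was 15.4 and 24.9 CPM in one well, and 15.4 and 28.6 in the other. Every MN+ library was above every MN- library, and both groups were higher in experiment 2 than in experiment 1, so that the groups spread more than the pairs. The fold change was 1.87 on the condition alone (log2 0.90, standard error 0.245, adjusted p = 0.641) and 1.91 with the block (log2 0.93, standard error 0.101, adjusted p = 0.0117). It was the 10th largest increase of the 10594 genes. Within the experiments the log2 fold change was 1.10 and 0.81, and the difference between them was not called (adjusted p = 0.976).

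With the well as the block TNFAIP3 had an adjusted p of 0.000763, where 0.321% of all genes were called higher, and in DESeq2 with the experiment as a block it had 5.48e-13, where 1.1% were. The edgeR call with the experiment as a block was lost when 1 of 5 libraries was left out: the MN+ 200 ms (adjusted p = 0.0657) or 800 ms library (0.0868) of experiment 1, or the MN- 200 ms (0.0527), MN- 800 ms (0.0583) or MN+ 800 ms library (0.100) of experiment 2. The log2 fold change stayed between 0.85 and 1.00 in the 8 fits that left out a library.

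CYLD was at 95.4, 96.7, 93.0 and 103 CPM in MN- and at 121, 126, 116 and 107 CPM in MN+, with no overlap. The fold change of 1.21 (log2 0.28, standard error 0.0751) had an adjusted p of 0.641, and of 0.206 with the block. CYLD was called in DESeq2 with the block (adjusted p = 0.0186) and when the libraries of both pulse lengths were summed (adjusted p = 0.0190), a fit that calls 4.39% of all genes higher and has 1 residual degree of freedom per gene. RELB was at 7.04, 8.62, 7.72 and 9.27 CPM in MN- and at 9.86, 10.3, 10.9 and 12.8 CPM in MN+, also with no overlap. RELB is listed in this table through its MN+ libraries, since 1 MN- and 2 MN+ libraries reach 700 counts, so a higher MN+ level was favoured. It had a fold change of 1.34 (log2 0.43, standard error 0.133, adjusted p = 0.641) and passed in 1 of 20 fits, that with the pulse lengths summed (adjusted p = 0.0343).

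NFKB2 was at 32.3, 28.8, 33.9 and 32.6 CPM in MN- and at 35.5, 34.2, 35.1 and 43.3 CPM in MN+. The groups did not overlap but nearly touched, and 1 MN+ library stood well above the others (log2 0.22, standard error 0.0985, adjusted p = 0.641). NFKB1 was higher in all 4 pairs (log2 0.22, standard error 0.144, adjusted p = 0.662), with groups that overlapped and were both lower in experiment 1. The inhibitors and TNIP1 showed no such separation: the log2 fold change was -0.02 for NFKBIA (standard error 0.0811), 0.10 for NFKBIE (0.104) and 0.09 for TNIP1 (0.133), and RELA had -0.07 (0.0902), and the sign of NFKBIA and RELA was not the same in all 20 fits. The groups stood apart for 4 members, against 2.43% of all genes, and 5 members were higher in every pair, against 15.9%, and RELB is in both counts.

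**Figure D3:**
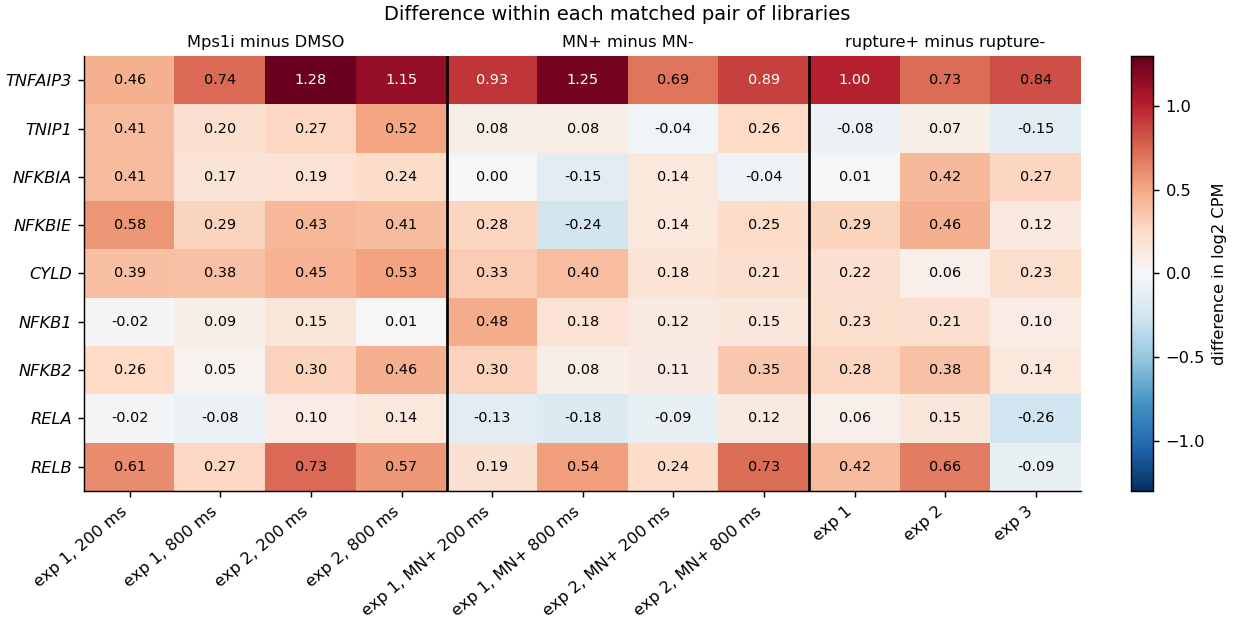
The grid gives the difference in log2 CPM (colour and printed value) within each of the 11 matched pairs of libraries (columns, by comparison and experiment, and for MN by the pulse of the MN+ library) for the 9 measured genes (rows). TNFAIP3 is positive throughout, from 0.46 to 1.28, and RELA has both signs in each comparison.

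Rupture exposes the chromatin of a micronucleus to the cytoplasm. The third comparison sets cells with at least 1 ruptured micronucleus against cells whose micronuclei were all intact. In the study's FISH, aneuploidy was more frequent with rupture for most chromosomes counted, so rupture and aneuploidy cannot be told apart here either. On the condition alone 3 of 9461 genes were called, all higher (0.0317%), and none was a member. With the experiment as a block 0.116% of genes were called higher, and TNFAIP3 was the only member among them. The median log2 fold change of the members was 0.23, or 0.20 without RELB, against -0.0022 over all genes.

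TNFAIP3 was at 13.0 CPM in rupture- and 25.96 in rupture+ in experiment 1, at 21.2 and 35.1 in experiment 2, and at 28.2 and 50.4 in experiment 3. The groups overlapped, since rupture- cells of experiment 3 exceeded rupture+ cells of experiment 1, while the differences within the pairs lay close together, at 1.00, 0.73 and 0.84 on the log2 scale. The fold change was 1.79 on the condition alone (log2 0.84, standard error 0.282, adjusted p = 0.550) and 1.81 with the block (log2 0.85, standard error 0.105, adjusted p = 0.0224), the 12th largest increase of the 9461 genes on the condition alone. The blocked call remained without each experiment in turn, with adjusted p from 0.000702 to 0.0285. In DESeq2 the adjusted p was 0.454 on the condition alone and 3.26e-08 with the block.

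The pulse differed between rupture+ and rupture-, so the members were also compared by pulse in the other tables, where it was crossed with the condition. The 800 ms against the 200 ms pulse changed TNFAIP3 by 0.09 on the log2 scale in the Mps1i table (standard error 0.131) and by 0.12 in the MN table (standard error 0.101). No member was called in either table, with adjusted p of 1 and 0.9995 for TNFAIP3 in edgeR, and none had an unadjusted p below 0.05. The direction of these values was not resolved, and no table tests the pulse in ruptured cells.

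NFKBIA was at 61.98, 51.3 and 64.0 CPM in rupture- and at 62.3, 68.6 and 77.4 CPM in rupture+, higher in all 3 pairs but by only 0.0072 on the log2 scale in experiment 1 (log2 0.23, standard error 0.113, adjusted p = 0.557). NFKBIE was at 17.4, 19.5 and 23.5 CPM in rupture- and at 21.2, 26.8 and 25.6 CPM in rupture+ (log2 0.29, standard error 0.138, adjusted p = 0.557). NFKB2 was at 28.7, 31.3 and 39.4 CPM in rupture- and at 34.8, 40.6 and 43.2 CPM in rupture+ (log2 0.26, standard error 0.133, adjusted p = 0.557). For these genes the levels also varied between the experiments, the groups overlapped, and none was called in any of the 16 fits. The log2 fold change of RELB, which reaches 700 counts in 1 rupture- and 2 rupture+ libraries and so is listed through rupture+, was 0.31 (0.240, standard error), that of NFKB1 0.18 (0.110) and that of CYLD 0.17 (0.107). TNIP1, at -0.05 (standard error 0.123), and RELA, at -0.01 (0.0988), were the members with a negative value, and both have the opposite sign in some of the 16 fits. No member's groups stood apart, against 9.58% of all genes that stood apart with rupture+ higher, and 6 members were higher in every pair, against 19.2%.

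**Figure D4:**
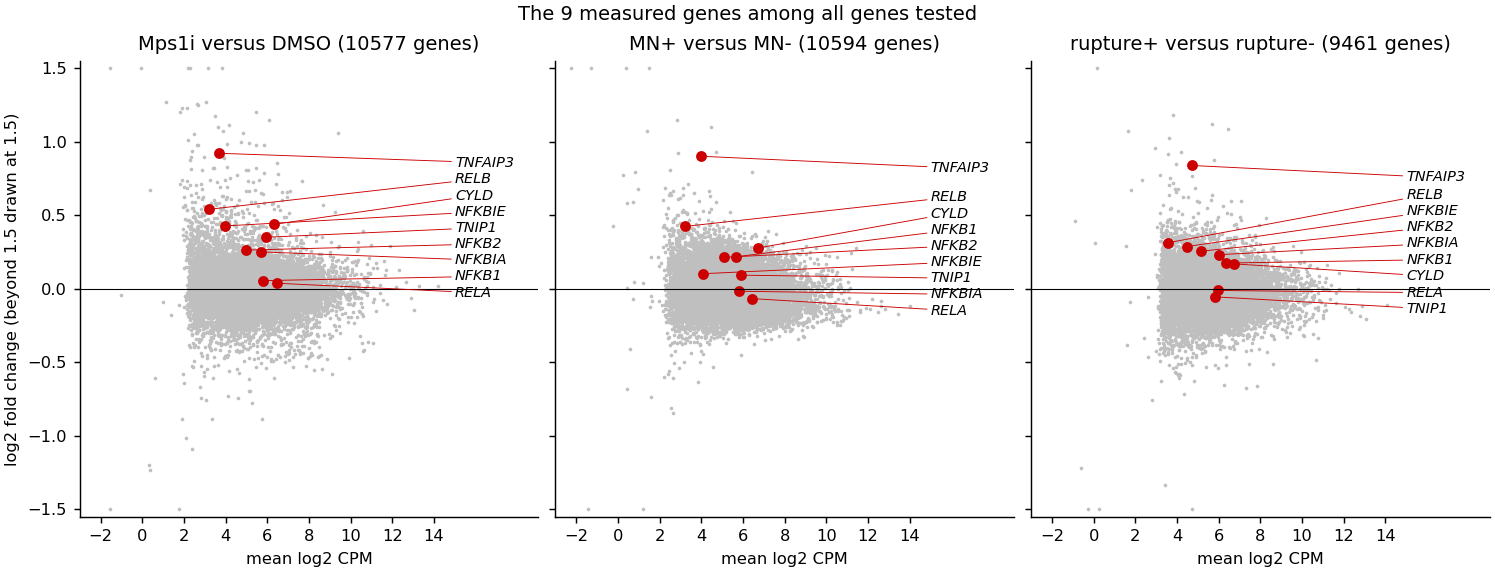
Each point is a gene of 1 table, with its mean log2 CPM on the horizontal axis and its edgeR log2 fold change on the condition alone on the vertical axis (values beyond 1.5 are drawn at 1.5), and the 9 measured members are red and named. TNFAIP3 lies near the upper edge of the cloud in all 3 comparisons (log2 0.92, 0.90 and 0.84), and RELA lies near 0.

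The rest of the pathway was read from 5 lists. With Mps1i, 7 of the 14 measured NF-kB target genes (of 30 listed) were called higher and 1 lower, and with the block 11 and 1, where 6.32% and 12.7% of all genes were called higher. The tables list a gene only if it reaches 700 counts in 2 or more libraries, and 1 of these target genes, IL1B, does so through Mps1i libraries alone. Among the 13 that reach it in both groups, 6 were called higher (10 with the block). CFLAR, an inhibitor of caspase-8, rose by 0.38 on the log2 scale (standard error 0.0488, adjusted p = 0.000997), IRF1, a transcription factor of the interferon response, by 0.56 (0.0826, adjusted p = 0.00225), and the cytokine gene LIF by 0.51 (0.0764, adjusted p = 0.00235). The median of this list was 0.31 with and without IL1B. Of the other IkB family genes 2 of 4 measured were called higher, and 3 with the block. Without BCL3, 1 of 3 was called higher, and 2 with the block, and the list median was 0.31. NFKBIZ, which encodes a nuclear cofactor of NF-kB, rose by 0.63 (standard error 0.0982, adjusted p = 0.00278). BCL3, another nuclear IkB protein, had 0.40 (0.109, adjusted p = 0.0368) and is listed through its Mps1i libraries (335 to 719 counts in DMSO). NFKBID was at 0.31 (0.102, adjusted p = 0.0703, with the block 0.0231).

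Upstream of IKK most listed genes were not called. Of the 20 receptors and adaptors measured, 4 were called higher and 1 lower (5 and 3 with the block), with a list median of 0.04. Without TRAF1, an adaptor of the TNF receptor family that is listed through its Mps1i libraries alone, these were 3 and 1 of 19 (4 and 3 with the block). Of all genes, 6.32% were called higher on the condition alone and 12.7% with the block. The death receptor gene TNFRSF10B rose from 155 ± 11.1 to 258 ± 30.5 CPM (log2 0.73, standard error 0.0796, adjusted p = 0.000451), and IRAK2, which acts below the interleukin-1 and Toll-like receptors, rose by 0.69 (0.0917, adjusted p = 0.00123). TRAF1 had 217 to 536 counts in DMSO and 343 to 719 in Mps1i (log2 0.54), a difference that its listing favoured. None of the 17 kinase and linear ubiquitin ligase genes was called on the condition alone in edgeR, and 2 were called higher and 1 lower with the block, a share near that of all genes. The nearest were MAP3K14, the kinase that starts the non-canonical pathway (log2 0.30, standard error 0.0940, adjusted p = 0.0584, with the block 0.0270), and TANK (0.12, 0.0402, adjusted p = 0.0690, with the block 0.0321). Of the 15 other negative regulators, 2 were called higher and 1 lower (3 and 2 with the block), where 6.32% and 12.7% of all genes were called higher. Without ZC3H12A, which is listed through its Mps1i libraries alone, these were 2 and 1 of 14 (2 and 2 with the block). TAX1BP1, a partner of A20, rose by 0.23 (standard error 0.0456, adjusted p = 0.00966), NLRC5 rose by 0.29 (0.0795, adjusted p = 0.0363), and SIVA1 fell by 0.23 (0.0652, adjusted p = 0.0446).

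In the MN and rupture tables no gene of the 5 lists was called, with or without the block. The list medians lay between -0.06 and 0.10 for MN+ and, for the lists with more than 1 measured gene, between -0.01 and 0.10 for rupture+. The largest values with rupture+ were those of the chemokine gene CXCL8 (67.5 ± 27.1 CPM in rupture- and 144 ± 96.7 in rupture+, log2 1.09, standard error 0.452, adjusted p = 0.550, with the block 0.0555) and IRAK2 (11.2 ± 3.51 and 18.4 ± 2.21 CPM, log2 0.72, standard error 0.202, adjusted p = 0.519, with the block 0.154). CXCL8 also had the largest value among the listed genes with MN+ (21.6 ± 5.00 CPM in MN- and 32.6 ± 8.65 in MN+, log2 0.59, standard error 0.208, adjusted p = 0.641).

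**Figure D5:**
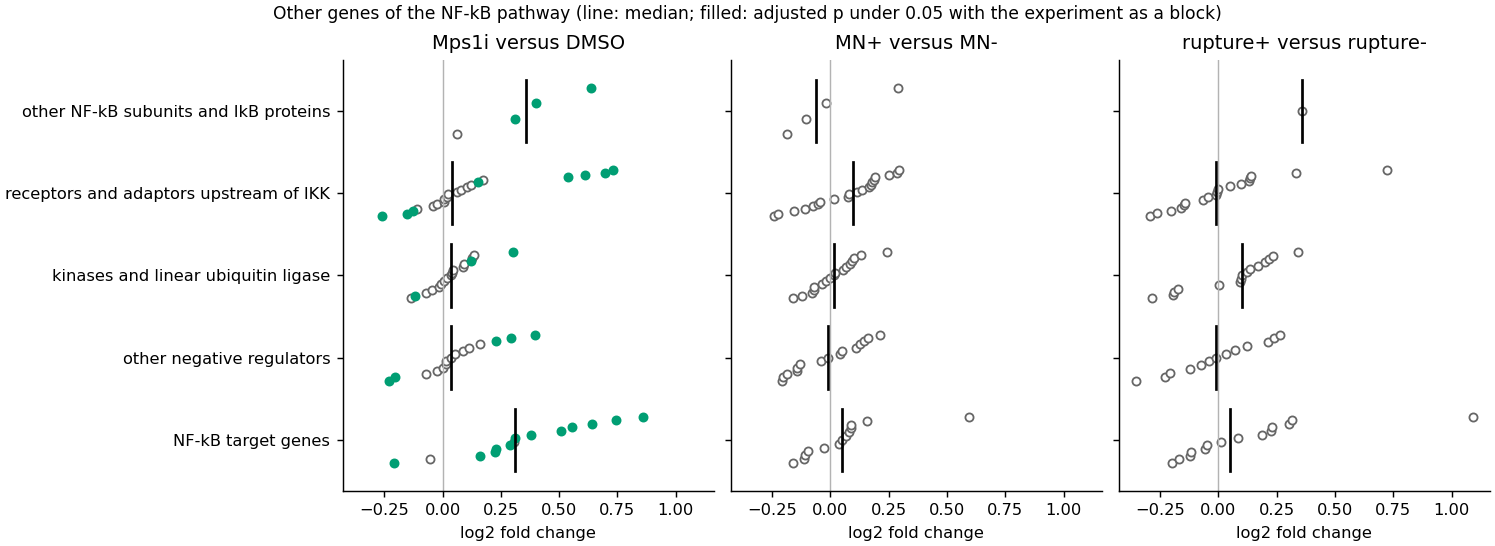
Each point is a measured gene of 1 of 5 pathway lists (rows), placed at its edgeR log2 fold change on the condition alone, with black lines for the list medians and filled points for an adjusted p below 0.05 with the experiment as a block. With Mps1i the medians of the target genes (0.31) and of the other IkB genes (0.36, or 0.31 without BCL3) lie to the right of 0. With MN+ and rupture+ no point is filled.

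Across the 22 libraries, with log2 CPM centred on the mean of each table, the genes most like TNFAIP3 among the 9431 in all tables were FRMD6 (Pearson r = 0.956), CBLB (0.917), KDM3A (0.882), CSRNP1 (0.870) and PPP1R15A (0.868). For CYLD they were UBL3 (r = 0.908), DRAM1 (0.899), TNFRSF10B (0.880), HECW2 (0.879) and ATF3 (0.877). For NFKBIA they were SNAP25 (r = 0.826), ANXA1 (0.816), ARF4 (0.810), PHYH (0.799) and SYTL2 (0.799), so no gene appears beside more than 1 of these members. The points share libraries, days and treatments, and the values only describe likeness. Among the members themselves the 36 pairwise r ranged from -0.29 to 0.85, with a median of 0.57. NFKB2 with RELB had the highest (0.850), followed by TNFAIP3 with RELB (0.804), NFKB1 (0.80) and NFKB2 (0.798), and the lowest was NFKBIA with RELA (-0.29). TNFAIP3 and NFKBIA, both textbook feedback genes, had an r of 0.271.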

How the data were processed

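RNA from sorted RPE1 cells was sequenced from SMART-Seq v4 libraries, which do not mark strand. The 29 labelled samples map to 22 columns. The labels divide 7 libraries into parts, and that a column sums its parts is not stated. The authors deposited estimated counts per gene, made with Salmon 1.2 on hg38 and summarised with tximeta, as whole numbers with no scaling. Total counts were 47919780 to 145242185 per library, and every listed gene reaches 700 counts in 2 or more libraries, which limits what could be measured.

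Groups were compared in edgeR 4.0.16 (quasi-likelihood test, TMM, condition alone, Benjamini-Hochberg over all genes of a table, threshold 0.05) in R 4.3.3. Standard errors were taken from the F statistic (absolute log2 fold change divided by its root). Log2 CPM used a prior count of 2. Libraries of 1 experiment share a day in the labels, so a second fit had the experiment as a block. Deviations from group means were correlated between libraries of opposite conditions. Within an experiment r was 0.0279 to 0.380 (Mps1i table), -0.0133 to 0.659 (MN) and 0.0095 to 0.229 (rupture). Between experiments it was -0.375 to -0.0871, -0.684 to -0.0979 and -0.146 to 0.104, so in the rupture table these ranges overlap. Alternatives were DESeq2 1.42.0 (likelihood ratio test), limma-voom (limma 3.58.1), DESeq2 size factors, filterByExpr, pulse and well terms, summed pulses, and leaving out libraries or experiments. Leaving out libraries with the block was added after seeing the data. The edgeR fit on the condition alone was tested on simulated data, and the other fits were not.

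Members were taken by symbol (GENCODE v44). Members, lists and alternatives were chosen with earlier results of these data known. Named genes were all members, up to 3 genes of each list with the smallest adjusted p, and the 5 genes most like TNFAIP3, NFKBIA and CYLD. TNFAIP3, RELA and CYLD share 95, 103 and 54 exonic bases with antisense genes (WAKMAR2, RELA-DT and CYLD-AS1), and CYLD shares 27 with another that has no symbol. Reads of these antisense genes cannot be told apart without strand. Promoter sequences are from RefSeq.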

Additional observations from a re-analysis of the deposited data

Results flagged for a closer look

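In the MN+ group the NFKB2 level of the 800 ms library of experiment 2 was 43.3 CPM, set apart from the other 3 MN+ libraries (34.2 to 35.5 CPM) by more than Dixon's criterion for 4 values allows. It was 1 of 36 groups of 4 libraries examined this way, and chance gives about 1 in 20. With that library the log2 fold change of NFKB2 was 0.22, and no fit with or without it called the gene.

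The Mps1i effect on RELA differed in sign between the experiments. Both pairs of experiment 1 were lower with Mps1i and both pairs of experiment 2 were higher, and the difference of the 2 effects was 0.17 on the log2 scale (standard error 0.0638, adjusted p = 0.318 in edgeR and 0.271 in DESeq2). After adjustment over all genes it did not pass the threshold.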

How the results depend on the processing

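The number of genes past the threshold depended on the fit. With Mps1i it was 1277 on the condition alone, 2593 with the experiment as a block and 3040 in DESeq2 with the block, and 524 to 2798 on the condition alone when a library or an experiment was left out (524 without experiment 2, 2798 without experiment 1), and 1627 to 2732 with the block when a library was. With MN+ it was 0, against 1 with the block, 35 with the well as the block, 5 in DESeq2, 166 in DESeq2 with the block, 822 with the pulses summed, 0 to 2 on the condition alone with a library or experiment left out, and 0 to 3 with the block and a library left out (3 without the MN+ 200 ms library of experiment 2). With rupture+ it was 3, against 15 with the block, 48 in DESeq2, 72 in DESeq2 with the block, 0 with DESeq2 size factors, 0 to 10 on the condition alone with a library or experiment left out, and with the block 77 without experiment 1, 11 without experiment 2 and 27 without experiment 3. Genes whose effect differed between the experiments numbered 38 in edgeR and 248 in DESeq2 for Mps1i, and 1 and 5 for MN+. The causes were not tested.

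In edgeR, the block that pairs libraries by experiment added NFKB2 and NFKBIA with Mps1i and TNFAIP3 with MN+ and with rupture+, and changed no other member's call. The NFKB2 call was lost when the block was fitted on summed pulses (adjusted p = 0.0562). No called member changed direction in any fit. TNFAIP3, CYLD and TNIP1 were called with Mps1i in all 19 fits, NFKBIE in 18 and RELB in 14, with NFKB2 and NFKBIA in 6 each. With MN+, TNFAIP3 was called in 4 of 20 fits (log2 0.74 to 1.10), and with rupture+ in 2 of 16 (0.56 to 1.13). These were the fits of all libraries with the experiment or the well as a block, each of which called it. The fits without a block, among them those counted here that left out a library or experiment, did not. With the block and a library left out, the MN+ call was lost in 5 of 8 further fits. Intervals between replicates rest on 2 or 3 experiments, and RELB and TNFAIP3 have the fewest reads per length.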
